A study of Mus musculus with 9 samples.

Results

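The RNA-Seq values of 9 transcripts that encode components of the PI3K-AKT pathway were examined in murine Tc17 cells, which are CD8+ T cells differentiated to produce IL-17. The 9 genes were taken by symbol, 9 of 41388 genes in the table: the PI3K inhibitor gene Pik3ip1, the subunit genes Pik3r1, Pik3cd and Pik3r5, the phosphatase genes Inpp5d and Inpp4b, and the kinase genes Akt1, Akt2 and Prkca. Each symbol matched 1 row, and all 9 passed the minimum mean of 10 normalized counts. Naive CD62L+CD44- CD8+ T cells of C57BL/6 mice, from lymph nodes and spleen, were primed with antibodies to CD3 and CD28 together with IL-2, TGF-β and IL-6 and an antibody to IFN-γ, and RNA was taken after 2 days. All 3 groups shared this priming and 0.2% DMSO. Ctrl cells received the solvent alone, DMF cells received 20 µM dimethyl fumarate, an electrophilic drug used in multiple sclerosis, and DMF + GSH cells received 20 µM DMF with 50 µM reduced glutathione, the thiol that DMF consumes. Each group had 3 libraries, of which replicate 1 came from preparation batch 1 and replicates 2 and 3 from batch 2. The study describes its experiments as done with independent biological replicates, but the labels do not say whether these libraries came from separate mice, so the p-values measure the spread between these libraries, which may be partly technical.

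PI3K converts a membrane inositol lipid to its triphosphate form after engagement of the T cell receptor, CD28 or the IL-2 receptor, and AKT is recruited to this lipid, phosphorylated and activated. Lipid phosphatases remove the signal, and active AKT phosphorylates FOXO transcription factors, which then leave the nucleus. Much of this regulation lies in lipids and phosphorylation, which RNA-Seq does not measure. In T cells p110δ is the main catalytic subunit downstream of antigen receptors, and PI3K-AKT signalling shapes effector differentiation.

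Reads per library, recovered from the normalized counts, ranged from 7671772 to 14511926, with a median of 11152111. Of the markers of the labelled cell type, 7 of 7 CD8 T cell genes and 4 of 4 Tc17 genes had a mean of at least 10. The summed level of the 4 Tc17 genes was 4209 to 6007 normalized counts in Ctrl, 1221 to 2714 with DMF and 3941 to 6469 with DMF + GSH. Among markers of other cells, CD4 T cell, NK cell and erythroid genes reached the minimum mean in 0 cases, B cell genes in 1 of 5 (Cd79b) and myeloid genes in 2 of 5, with the myeloid sum at 79.0 to 271.6 in Ctrl, 58.2 to 72.8 with DMF and 87.5 to 94.3 with DMF + GSH. Lyz2 was at 119 and Csf1r at 58.3 in their highest Ctrl library. The part of these marker levels in the results below was not tested. In bulk RNA, fewer cells of a type and less RNA per cell cannot be told apart.

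The question asked of the 9 transcripts was whether their levels differ with DMF and whether added GSH moves them back. Prkca rose with DMF to 1.67 times its Ctrl level. Pik3ip1 had the largest difference of the 9, at 0.356 times Ctrl, and passed the threshold when the libraries were paired by replicate number. Paired in this way, Pik3cd fell to 0.854 times and Akt1 rose to 1.20 times Ctrl, whereas Pik3r1, Pik3r5, Inpp5d, Inpp4b and Akt2 did not pass. With DMF + GSH, 7 of the 9 means lay closer to Ctrl than to DMF, as did 79% of all 11599 genes tested. Of the 7, Pik3r5, Inpp5d and Inpp4b had no called difference between DMF and Ctrl.

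The test was limma-trend on log2(normalized count + 1) over all 9 libraries and 11599 genes, with group and preparation batch as terms, and a gene was called at a Benjamini-Hochberg adjusted p (p adj) under 0.01. log2 fold changes (log2FC) are on this log2(normalized count + 1) scale, as estimate and standard error (SE). The batch term sets replicate 1 apart but does not pair replicates 2 and 3 by number across groups. With it, 1 of 9 transcripts was called between DMF and Ctrl, against 7.19% of all genes tested (3.60% higher and 3.60% lower). The replicate numbers paired the libraries, and once each number was fitted as a block (the replicate block, which takes the place of the batch) 4 of 9 were called, 2 higher and 2 lower, against 33.2% of all genes (17.6% higher and 15.6% lower). On the recovered reads, edgeR's quasi-likelihood test called Prkca and 7.16% of all genes, whereas DESeq2 called Prkca and Pik3ip1 and 16.4% of all genes. Between DMF + GSH and DMF, limma with the batch term called 0 of 9, against 0.819% of all genes, although 4 of the 9 and 37.9% of all genes had an unadjusted p under 0.05. In the same comparison edgeR called 0 of 9 and 0.957% of all genes, and DESeq2 2 of 9 and 12.9%. With the replicate block 5 of 9 were called, 2 higher and 3 lower, against 29.2% of all genes (13.7% higher and 15.6% lower). Between DMF + GSH and Ctrl, limma with the batch term called 0 of 9 and 0.00% of all genes, with an unadjusted p under 0.05 for 0 of the 9 and for 222 of the 11599 genes, and edgeR and DESeq2 also called 0. With the replicate block 0 of 9 were called, against 0.0259% of all genes. The comparisons share libraries, so that a high or low DMF library enters DMF against Ctrl and DMF + GSH against DMF with opposite sign.

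**Figure D1:**
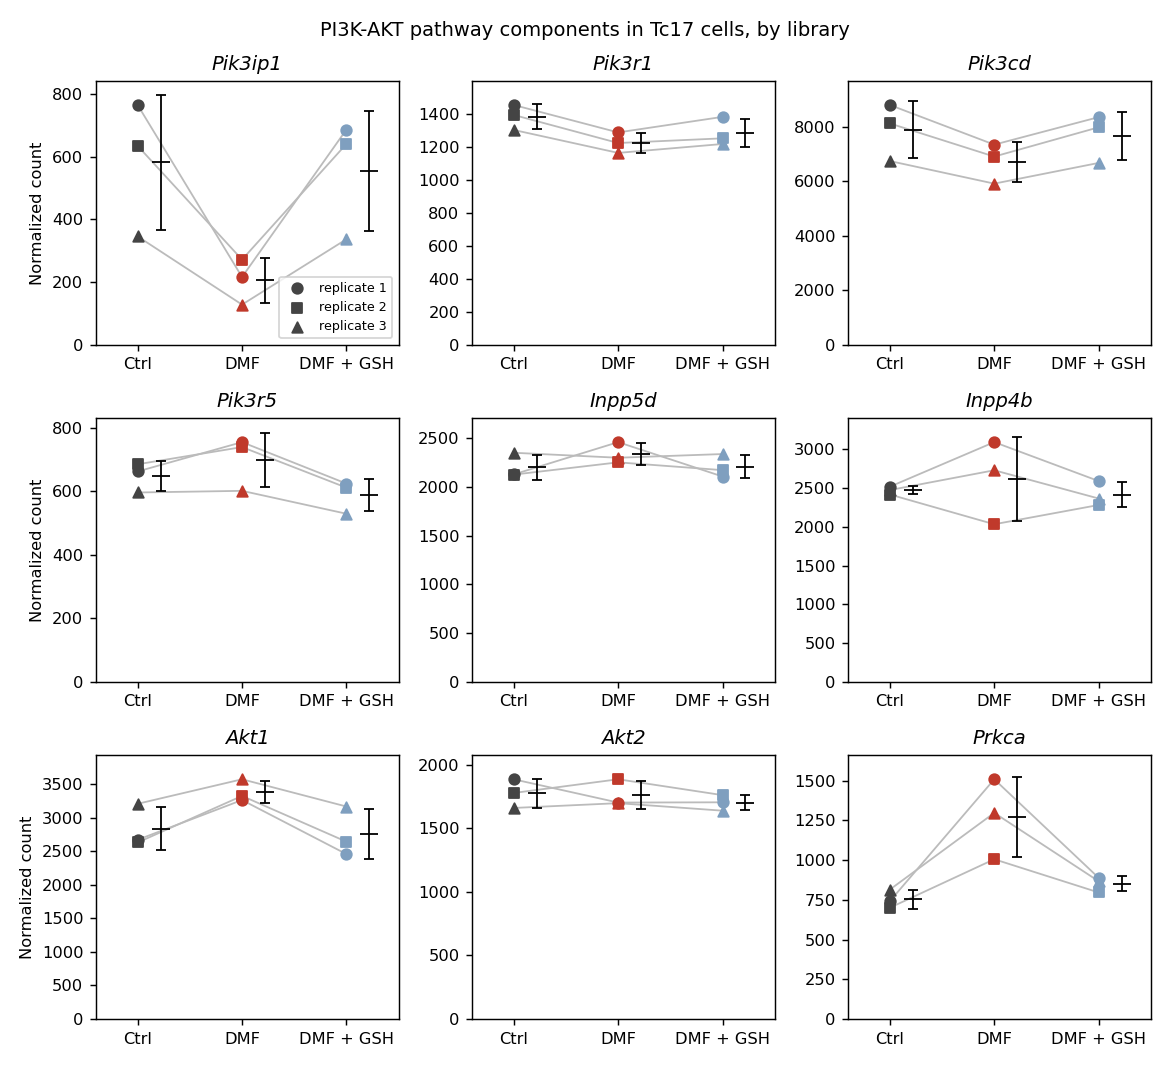
Normalized count (vertical axes, from 0) of the 9 transcripts in each library of Ctrl, DMF and DMF + GSH; marker shapes and grey lines join libraries with the same replicate number, and black bars give the mean and SD of 3 libraries. The DMF libraries of Pik3ip1 lie below and those of Prkca above all libraries of the other groups, while for Akt2 the groups overlap.

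Pik3ip1 encodes a transmembrane protein that binds the p110 catalytic subunit and restrains PI3K in T cells. It lies at chr11:3330401-3342971 on the plus strand (GRCm38, GENCODE vM21), with Gm12592 annotated on the opposite strand. Pik3ip1 stood at 765, 634 and 346 normalized counts in Ctrl replicates 1 to 3, at 216, 271 and 128 with DMF and at 687, 641 and 336 with DMF + GSH. All 3 DMF libraries were below all Ctrl and all DMF + GSH libraries, and replicate 3 was the lowest in every group. The mean was 582 ± 215 (SD, n = 3) for Ctrl, 205 ± 72.4 for DMF and 555 ± 190.0 for DMF + GSH, so that the libraries of 1 group varied by 34.3% to 36.9% of their mean. The difference within replicate numbers varied less, with log2 values of −1.82, −1.22 and −1.43 for DMF against Ctrl. The replicate number 1 value is the one within batch 1, and the other two are within batch 2. For Pik3ip1 the log2FC was −1.49 (SE 0.324), with a limma p adj of 0.0115 that missed the threshold, and with the replicate block the SE was 0.0982 and p adj was 2.24e-09. With the batch term Pik3ip1 passed when Ctrl replicate 3 (p adj = 0.00564), DMF replicate 2 (0.00332) or DMF + GSH replicate 3 (0.00678) was left out, and missed without any other single library, with log2FC from −1.84 to −1.25. Of all genes tested, 0.836% had a log2FC as low or lower. The Pik3ip1 call with the replicate block was kept in 9 of 9 fits that left out 1 library (limma p adj from 1.31e-10 to 2.48e-07).

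Adding GSH to DMF was accompanied by Pik3ip1 values higher in 3 of 3 pairs, by 1.66, 1.24 and 1.39 on the log2 scale. The log2FC was 1.43 (SE 0.324, limma p adj = 0.0167), and with the replicate block Pik3ip1 rose (p adj = 6.71e-09). This block call was kept in 9 of 9 fits that left out 1 library (limma p adj from 3.12e-10 to 4.72e-07). Against Ctrl, DMF + GSH left a log2FC of −0.06 for Pik3ip1 with a 95% interval from −0.78 to 0.66, or from −0.27 to 0.15 with the block. The window before the RefSeq start of Pik3ip1 overlaps annotated exons, including at its most distant base, and is not printed.

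Pik3cd encodes p110δ, the catalytic subunit enriched in leukocytes, and lies at chr4:149649168-149702571 on the minus strand. It gave 8802, 8125 and 6743 normalized counts in Ctrl, 7345, 6907 and 5913 for DMF and 8356, 7983 and 6674 for DMF + GSH. The groups overlapped, but in each replicate number the DMF library was the lowest of the 3. For Pik3cd the log2FC with DMF was −0.23 (SE 0.0981, limma p adj = 0.108), and with the replicate block it fell (SE 0.0485, p adj = 0.000807). The pairs differed by −0.26, −0.23 and −0.19. With DMF + GSH against DMF, Pik3cd had a log2FC of 0.19 (limma p adj = 0.184), which passed with the block (p adj = 0.00408). This last call was lost in 5 of 9 fits that left out 1 library, without DMF replicate 1 (p adj = 0.0178) or 2 (0.0162) or without DMF + GSH replicate 1 (0.0112), 2 (0.0347) or 3 (0.0249).

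Neither regulatory subunit transcript, Pik3r1 or Pik3r5, was called between DMF and Ctrl with the batch term or with the replicate block. Pik3r1 encodes p85α and its shorter forms, which stabilise p110 and dock it to phosphorylated receptors, and lies at chr13:101680563-101768217 on the minus strand. Pik3r1 was at 1454, 1393 and 1303 normalized counts in Ctrl, 1288, 1223 and 1163 for DMF and 1382, 1252 and 1217 for DMF + GSH. Its DMF libraries were all below its Ctrl libraries and overlapped with DMF + GSH. The pairs of DMF and Ctrl differed by −0.18, −0.19 and −0.16, a log2FC of −0.18 (SE 0.0622) that did not pass limma's test with the batch term (p adj = 0.06) or with the replicate block (p adj = 0.0157). Pik3r1 was 1 of the 2 transcripts whose DMF + GSH mean was closer to DMF than to Ctrl, with a log2FC against Ctrl of −0.11 and a 95% interval from −0.25 to 0.03. Akt2 was the other.

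Pik3r5 encodes p101, the regulatory subunit that couples p110γ to G protein-coupled receptors, and lies at chr11:68432121-68497849 on the plus strand. Its values were 662, 685 and 596 normalized counts in Ctrl, 754, 739 and 601 for DMF and 624, 611 and 529 for DMF + GSH. Ctrl and DMF overlapped through replicate 3, where the 2 values were nearly equal. The log2FC of Pik3r5 with DMF was 0.10 with a 95% interval from −0.12 to 0.33 (limma p adj = 0.468). Between DMF + GSH and DMF it was −0.24 (limma p adj = 0.108), and with the replicate block Pik3r5 fell (p adj = 0.00756). The block call was kept without Ctrl replicate 1 (p adj = 0.00759) or 3 (0.00851) and lost without Ctrl replicate 2 (0.0126), without DMF replicate 1 (0.0440), 2 (0.0350) or 3 (0.0113), or without DMF + GSH replicate 1 (0.0186), 2 (0.0462) or 3 (0.0275).

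The 2 lipid phosphatases were not called in any of the 3 comparisons with the batch term or with the replicate block. Inpp5d encodes SHIP1, which removes the 5-phosphate from the PI3K product, and lies at chr1:87620312-87720507 on the plus strand. Inpp5d was at 2128, 2126 and 2351 normalized counts in Ctrl, 2460, 2252 and 2300 for DMF and 2107, 2172 and 2337 for DMF + GSH. The 3 groups overlapped, and the log2FC with DMF was 0.09 with a 95% interval from −0.07 to 0.25 (limma p adj = 0.393). Inpp4b encodes a 4-phosphatase that acts on the lipid that SHIP1 makes, and lies at chr8:81342556-82127914 on the plus strand, where 3 other annotated genes overlap it. Its values were 2519, 2418 and 2476 normalized counts in Ctrl, 3095, 2034 and 2731 for DMF and 2592, 2283 and 2367 for DMF + GSH. The Ctrl libraries of Inpp4b varied by 2.05% of their mean and the DMF libraries by 20.6%, and the DMF libraries held both the highest and the lowest of the 9 values. Accordingly the pairs went both ways (0.30, −0.25 and 0.14), and the log2FC was 0.06 with a 95% interval from −0.18 to 0.31 (limma p adj = 0.693).

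Akt1 and Akt2 encode closely related serine-threonine kinases, of which AKT1 is broadly tied to growth and survival and AKT2 to glucose uptake. Akt1 lies at chr12:112653821-112674884 on the minus strand and Akt2 at chr7:27591552-27640826 on the plus strand. Akt1 stood at 2670, 2630 and 3207 normalized counts in Ctrl, 3263, 3324 and 3572 for DMF and 2457, 2642 and 3166 for DMF + GSH. All 3 DMF libraries were above all other libraries, and replicate 3 was the highest of each group. For Akt1 the log2FC with DMF was 0.26 (SE 0.0945, limma p adj = 0.0642), and with the replicate block it rose (SE 0.0558, p adj = 0.000852), a call that was lost without Ctrl replicate 2 (p adj = 0.0142). With DMF + GSH against DMF the log2FC of Akt1 was −0.30 (limma p adj = 0.0443), and with the block it fell (p adj = 0.000236).

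Akt2 gave 1886, 1779 and 1661 normalized counts in Ctrl, 1703, 1887 and 1699 for DMF and 1705, 1762 and 1639 for DMF + GSH. The groups overlapped, and the log2FC of Akt2 with DMF was −0.01 with a 95% interval from −0.18 to 0.16 (limma p adj = 0.931). The ratio of Akt1 to Akt2, both per kb of exon, was 2.46, 2.57 and 3.36 in Ctrl, 3.33, 3.07 and 3.66 for DMF and 2.51, 2.61 and 3.36 for DMF + GSH. The ratio was higher with DMF in 3 of 3 pairs, but the groups overlapped through Ctrl replicate 3. A two-sided exact permutation test of the log2 ratio between DMF and Ctrl (difference 0.27, n = 3 per group) gave p = 0.3, and 0.45 after Benjamini-Hochberg adjustment over 3 comparisons. This test does not use the pairs and cannot give a p below 0.1 with 3 against 3 libraries, so it does not show whether Akt1 and Akt2 differed in response.

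Prkca encodes protein kinase Cα, an isoform activated by calcium and diacylglycerol. It lies at chr11:107933387-108343928 on the minus strand, overlapped on the opposite strand by Apoh and 3 other annotated genes. Prkca was at 742, 700 and 815 normalized counts in Ctrl, 1510, 1006 and 1298 for DMF and 889, 797 and 867 for DMF + GSH. Every DMF library was above every library of the other groups. The mean was 752 ± 57.9 (SD, n = 3) for Ctrl, 1271 ± 253 for DMF and 851 ± 48.3 for DMF + GSH. The pairs differed by 1.02, 0.52 and 0.67 on the log2 scale. The log2FC of Prkca was 0.74 (SE 0.121, limma p adj = 0.00604), or p adj = 6.75e-07 with the replicate block. The block call was kept in 9 of 9 fits that left out 1 library (limma p adj from 3.97e-08 to 2.74e-05). The call with the batch term was lost with the 6 libraries compared alone (p adj = 0.0131) and without Ctrl replicate 1 (0.0482) or 2 (0.0283), DMF replicate 1 (0.0556) or 3 (0.0358), or DMF + GSH replicate 1 (0.0143), with log2FC from 0.62 to 0.88 over all fits that left out 1 library.

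With DMF + GSH against DMF, Prkca had a log2FC of −0.56 (SE 0.121, limma p adj = 0.0152), and with the replicate block it fell (p adj = 1.95e-05). This block call was also kept in 9 of 9 fits that left out 1 library (limma p adj from 1.43e-06 to 0.000412). Each DMF + GSH library was still above the Ctrl library of its number, by 0.26, 0.19 and 0.09 on the log2 scale. This difference of 0.18 had a 95% interval from −0.09 to 0.45 and did not pass the threshold (limma p adj = 1.0, and 0.925 with the block, unadjusted p = 0.0386).

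**Figure D2:**
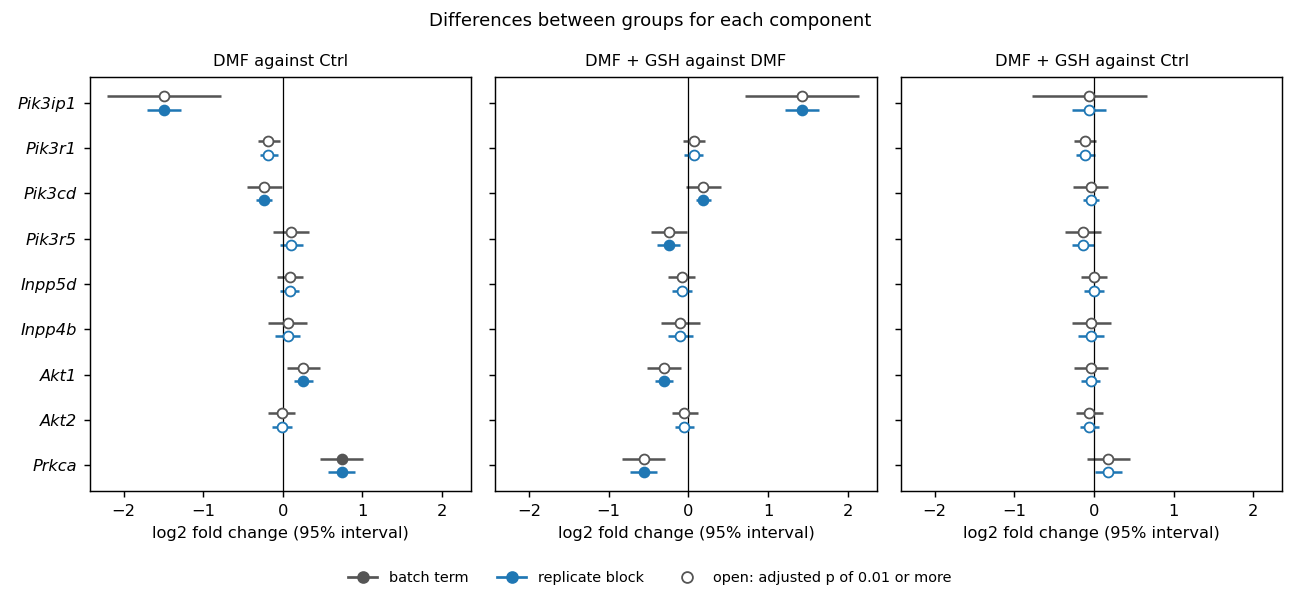
log2 fold change (horizontal axes) with its 95% interval for the 9 transcripts in the 3 comparisons; grey is limma with the batch term, blue with the replicate block, and filled points have an adjusted p under 0.01. With the block the Pik3ip1 interval for DMF against Ctrl runs from −1.70 to −1.28, and in DMF + GSH against Ctrl no point is filled.

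The upstream windows of Prkca, which rose with DMF, and of Akt1, which held the only motif match among the 9 genes, are given here from RefSeq promoters on GRCm38.p6. All 9 genes matched this table, with 16 annotated starts. The 300-base windows, 250 bases before and 50 after each start, were searched on both strands for the FOXO core GTAAACA, the antioxidant response element core TGACNNNGC, which NRF2 binds, and the E-box CACGTG. The FOXO core was in 1 of the 16 windows and in 3.65% of all 32817 windows, the antioxidant response element core in 0 of 16 and 12.4%, and the E-box in 0 of 16 and 7.15%. The match was at the distal of the 2 Akt1 starts, with its first base at position −161. The sequences are on the minus strand, written 5′ to 3′, at chr11:108343929-108344138 for Prkca (210 bases outside annotated exons, 76.2% G and C) and chr12:112674885-112675134 for Akt1 (250 bases, 52% G and C). Capitals mark the reverse complement of the FOXO core.
Prkca: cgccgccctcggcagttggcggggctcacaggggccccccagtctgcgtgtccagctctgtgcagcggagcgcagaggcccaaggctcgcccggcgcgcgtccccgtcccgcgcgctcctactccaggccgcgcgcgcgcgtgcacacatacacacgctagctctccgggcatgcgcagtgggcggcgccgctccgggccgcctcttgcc
Akt1: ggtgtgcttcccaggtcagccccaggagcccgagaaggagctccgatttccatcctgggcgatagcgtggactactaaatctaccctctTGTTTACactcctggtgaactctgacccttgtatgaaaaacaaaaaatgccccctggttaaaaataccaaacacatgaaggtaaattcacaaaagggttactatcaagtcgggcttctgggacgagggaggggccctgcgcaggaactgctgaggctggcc
A match is a description of letters and not of a bound site.

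Levels between genes were compared per kb of merged exon. In Ctrl, Pik3cd was the highest of the 9 at 1261 ± 168 normalized counts per kb (SD, n = 3), followed by Akt1 at 692 ± 78.6, Inpp5d at 290 ± 16.9, Akt2 at 249 ± 15.8 and Inpp4b at 189 ± 3.89. Pik3r1 at 137 ± 7.56, Pik3ip1 at 136 ± 50.2, Pik3r5 at 117 ± 8.32 and Prkca at 83.7 ± 6.44 were the lowest. Pik3ip1, with a range from 80.9 to 179 per kb, overlapped Pik3r1, Pik3r5 and Prkca, whereas the ranges of the other neighbours in this order did not overlap. With DMF, Pik3ip1 was in the last place, at 48.0 ± 17.0 per kb, below Prkca at 141 ± 28.1.

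Within the enzyme families, Pik3cd made up 81.6% to 84.4% of the summed per-kb level of the 4 class I catalytic transcripts in Ctrl, 80.3% to 83.6% with DMF and 81.3% to 83.4% with DMF + GSH. These ranges overlapped. Akt1 made up 65.5% to 70.7% of the AKT transcripts in Ctrl, 70.5% to 73.9% with DMF and 65.5% to 71.3% with DMF + GSH. The share of Prkca among 8 PKC transcripts was 5.53% to 6.90% in Ctrl, 8.88% to 12.5% with DMF and 6.26% to 7.74% with DMF + GSH, with the DMF range apart from both others. Prkcq, the PKCθ gene of the T cell synapse, took 27.0% to 31.9%, 19.5% to 22.2% and 26.2% to 30.1% in the same order, so that the share of Prkca was higher and that of Prkcq lower with DMF. The DMF ranges of Prkci (9.81% to 11%) and Prkch (39% to 40.3%) were also apart, above 6.48% to 9.66% in Ctrl and 6.62% to 8.98% with DMF + GSH for Prkci and 38.2% to 38.4% and 38.2% to 38.9% for Prkch, and Prkci rose with DMF in the fit with the replicate block (log2FC 0.36, limma p adj = 0.000596). The shares are relative to each other and carry no test.

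**Figure D3:**
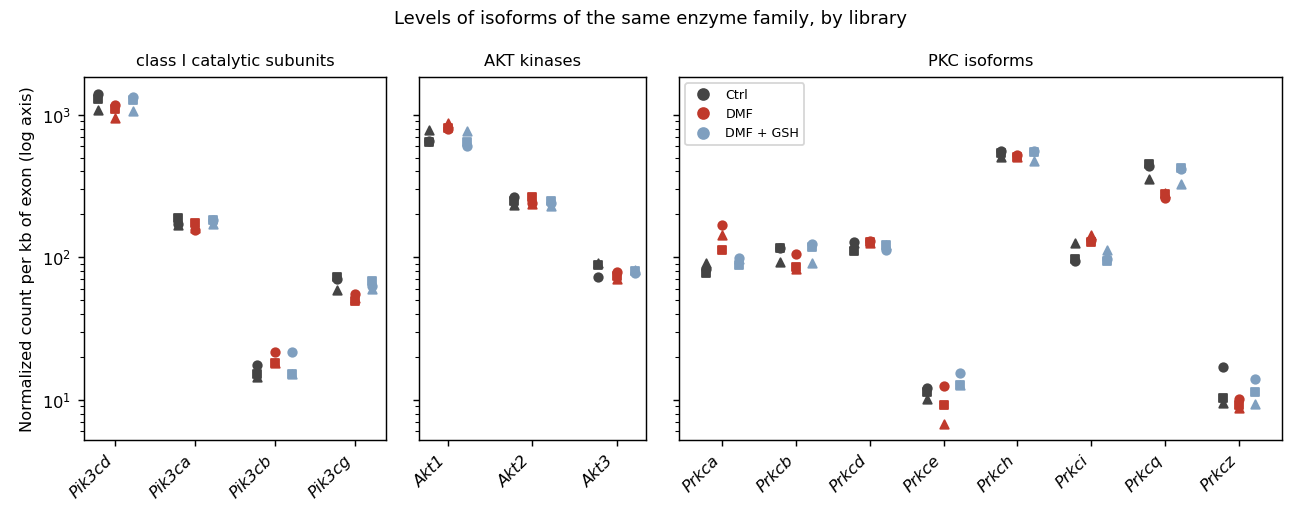
Normalized count per kb of exon (log axis) for class I catalytic subunits, AKT kinases and PKC isoforms, 1 point per library (circle, square and triangle for replicates 1, 2 and 3), in Ctrl (dark), DMF (red) and DMF + GSH (blue). Prkca points with DMF lie above and Prkcq points below those of the other groups, while Pik3cd stays far above the other catalytic transcripts.

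The rest of the pathway was taken from a list of 77 genes in 9 roles, of which 75 were in the table and 71 were tested. Between DMF and Ctrl, 0 rose and 6 fell, 8.45% of those tested against 7.19% of all genes, and the median log2FC was −0.11 against 0.01 over all genes tested. With the replicate block 5 rose and 18 fell, 32.4% against 33.2%. Both directions together, called genes of the list were about as frequent as among all genes, in either fit. By direction, with the block 7.04% of the list was higher and 25.4% lower, against 17.6% and 15.6% of all genes, and with the batch term 0% and 8.45%, against 3.60% each way. These shares were not tested against each other.

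The 6 that fell belong to 5 roles. Pik3r3, the p55γ regulatory subunit, went from 55.0 ± 5.78 (SD, n = 3) normalized counts in Ctrl to 25.4 ± 4.76 with DMF (log2FC −1.09, limma p adj = 0.00996), and its call was lost in 13 of 20 alternative fits. Pik3ap1, the adaptor BCAP that recruits PI3K, went from 282 ± 58.3 to 141 ± 58.3 (log2FC −1.06, limma p adj = 0.00722). Phlpp1, a phosphatase that dephosphorylates AKT, went from 308 ± 10.8 to 219 ± 18.9 (log2FC −0.49, limma p adj = 0.00775). These 3 thus include a subunit, an adaptor and a brake of the pathway. Tbc1d4, the AKT substrate AS160 that controls glucose transporter traffic, went from 716 ± 72.2 to 433 ± 41.4 (log2FC −0.72, limma p adj = 0.00474). Cdkn1b, the cell cycle inhibitor p27, went from 1828 ± 380 to 990 ± 162 (log2FC −0.87, limma p adj = 0.00785). Prkcq went from 2935 ± 367 to 1941 ± 75.8 (log2FC −0.59, limma p adj = 0.00865). With DMF + GSH the means were 57.8 for Pik3r3, 230.0 for Pik3ap1, 284 for Phlpp1, 739 for Tbc1d4, 1670.0 for Cdkn1b and 2754 for Prkcq. Against DMF, Tbc1d4 alone of the list passed with the batch term (log2FC 0.77, limma p adj = 0.00724). This call was lost at least without DMF replicate 3 or DMF + GSH replicate 1 or 2, where 0 of all genes were called. Between DMF and Ctrl, omitting 1 library left between 0 and 11 of the list called with the batch term. The count was 0 without Ctrl replicate 1 or 2, DMF replicate 1 or 3, or DMF + GSH replicate 1. It was 9 or more without Ctrl replicate 3, DMF replicate 2 or DMF + GSH replicate 3. Over all 11599 genes the count moved the same way, with 2 to 70 called in the first set of fits and 1282 to 1512 in the second.

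Of the lipid phosphatase transcripts, Inpp4a (log2FC −0.63) and Inpp5k (log2FC −0.71) fell with the replicate block, named here after their values were seen, whereas Inpp5d and Inpp4b did not pass. By role, again with the block, the AKT phosphatases and inhibitors had 2 higher and 3 lower of 9, the AKT substrates 0 higher and 4 lower of 10, among them Foxo1 (−0.27) and Foxo4 (−0.56), and the adaptors and coreceptors 0 higher and 4 lower of 11, where 17.6% of all genes were higher and 15.6% lower. The lipid phosphatases had 0 higher and 3 lower of 11 and the other class I PI3K subunits 0 higher and 2 lower of 5. Among the kinases, the PtdIns kinases that make the PI3K substrate had 1 higher and 0 lower of 8, AKT and related kinases 1 higher and 0 lower of 6, and the other PKC isoforms 1 higher and 2 lower of 7. The class II and III PI3K had 0 of 4 called in either fit. In DMF + GSH against DMF the block called 17 of the 71 higher and 6 lower, against 13.7% and 15.6% of all genes. In DMF + GSH against Ctrl it called 1 of the 71, Trib2, which encodes a pseudokinase (log2FC −0.40, limma p adj = 0.00791), among 3 of all 11599 genes. With the block 0 of all genes were called in this comparison in 5 of the 9 fits that left out 1 library, without Ctrl replicate 1, 2 or 3 or DMF + GSH replicate 2 or 3, so that the Trib2 call was lost there.

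**Figure D4:**
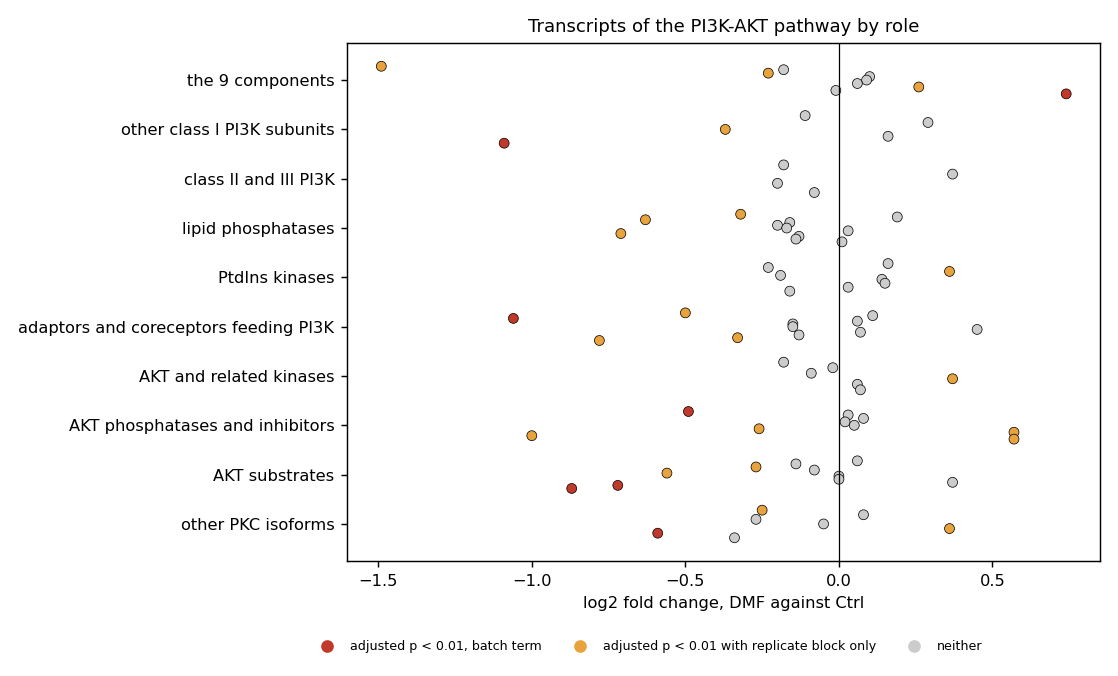
log2 fold change of DMF against Ctrl (horizontal axis) for the 9 components and 71 other pathway transcripts, 1 point per gene, in rows by role; red points have an adjusted p under 0.01 with the batch term, orange points with the replicate block only. Points called with the batch term lie left of 0 except Prkca.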

How the data were processed

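The members and gene lists were chosen with earlier results of these data known. The authors aligned 50 bp single reads to GRCm38 with STAR 2.4.0b, counted them per gene with featureCounts and divided the counts by a size factor for each library. These normalized counts are the signal values they deposited for 9 libraries. Strand use in the counting is not stated, so reads of overlapping and antisense genes cannot be told apart. The authors' own columns of a log2 fold change, a score, its p-value and an adjusted p were deposited beside them and were not used. Dividing by the value of 1 read gave whole numbers for 100% of values (tolerance 0.01 reads), and edgeR and DESeq2 were run on these reads as alternatives.

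limma 3.58.1 (R 4.3.3) was fitted to log2(normalized count + 1) for genes with a mean of at least 10, with group and preparation batch as terms. Replicate numbers paired the libraries. After subtraction of group means, the correlation over genes was 0.447 to 0.578 in the 9 pairs that shared a number across groups. In the 18 other such pairs it was −0.471 to −0.0621, but the subtraction itself pushes these negative once the former are positive. Results with this block are printed where they alter a call. In counts simulated from these libraries for DMF against Ctrl (11599 genes, 200 changed), the test called 84% of genes with a simulated log2FC of 1.5 and 21% of those with 0.5. The simulation had no batch or replicate-number effect, and fewer changed genes than were called in the data. These percentages may therefore not hold for the test in these data. Named were the 9 members and the listed pathway genes called between DMF and Ctrl. Alternatives were pseudocounts of 0.5 and 4, no minimum and a minimum of 50, quantile normalization, TMM, the replicate block, no batch term, the 6 libraries compared, edgeR 4.0.16, DESeq2 1.42.0, an adjusted p under 0.05 and each library left out. Positions come from GENCODE vM21. Figures used Matplotlib 3.10.9 under Python 3.11.15. Some results for single genes are not reported here.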

Additional observations from a re-analysis of the deposited data

How the results depend on the processing

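The fit with the batch term was compared with 567 alternative values for the 9 transcripts in 3 comparisons. Of these, 514 kept their direction and their side of the threshold and 28 newly passed. A further 6 no longer passed (all of Prkca, DMF against Ctrl) and 19 changed sign. Counts of the 9 called between DMF and Ctrl were 1 in the reported fit, 2 with no minimum mean, with DESeq2 and at an adjusted p under 0.05, 4 with the replicate block in limma and in edgeR, 0 with the 6 libraries compared alone, and 0 to 2 with 1 library left out. Over all genes these were 834 of 11599, 1162 of 26629, 1905 and 3242 of 11599, 3848 and 3850, 48, and 2 to 1512. For DMF + GSH against DMF the counts of the 9 were 0 in the reported fit, 2 with no minimum mean and with DESeq2, 3 at an adjusted p under 0.05, 5 with the replicate block in limma and in edgeR, and 0 to 2 with 1 library left out. Over all genes these were 95 of 11599, 667 of 26629, 1500, 2592, 3391 and 3446 of 11599, and 0 to 983. Pik3ip1 (p adj = 0.00502) and Prkca (p adj = 0.0040) were called there without DMF replicate 2, and Pik3ip1 (p adj = 0.00769) without DMF + GSH replicate 3. Of the pathway list between DMF and Ctrl, 6 were called in the reported fit, 23 with the replicate block, 24 with edgeR and the block, 15 with DESeq2, 20 at an adjusted p under 0.05, 0 with the 6 libraries alone, and 0 to 11 with 1 library left out. With fewer libraries the test has fewer degrees of freedom, and otherwise the cause was not tested.

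Changes of sign came when 1 library was left out, in values that did not pass the threshold. Between DMF and Ctrl the log2FC ranged from −0.03 to 0.21 for Inpp4b and from −0.07 to 0.05 for Akt2, and with the replicate block from −0.03 to 0.21 and from −0.05 to 0.05. Between DMF + GSH and DMF it ranged from −0.10 to 0.01 for Akt2. Between DMF + GSH and Ctrl it ranged from −0.34 to 0.21 for Pik3ip1, −0.12 to 0.03 for Pik3cd, −0.04 to 0.05 for Inpp5d, −0.11 to 0.00 for Inpp4b and −0.13 to 0.03 for Akt1, and with the block from −0.15 to 0.05 for Pik3ip1, −0.02 to 0.04 for Inpp5d, −0.11 to 0.05 for Inpp4b and −0.08 to 0.00 for Akt1. Inpp4b was called for DMF + GSH against DMF (p adj = 0.00482) with the block when DMF replicate 2 was left out. The 9 transcripts had at least 132 reads in every library, and the number of libraries was 3 in each group.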
